A study of Mus musculus with 4 samples.

Results

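The 10 genes described here carry or report Wnt/β-catenin signalling in brain endothelial cells (ECs): *Lef1*, *Axin2*, *Apcdd1*, *Tcf7*, *Fzd4*, *Fzd6*, *Lrp5*, *Adgra2*, *Reck* and *Tspan12*. They were taken by symbol from the 32286 genes of the count tables, and each symbol matched 1 row. Single-cell RNA was measured in vascular fragments that had been pulled from the cerebrum with magnetic beads against PECAM1, an endothelial surface protein, and the study asked what loss of angiopoietin-2 does to brain vessels. The 4 mice were 3 months old, with 1 library each: 2 *Angpt2*-WT littermates (*Angpt2*+/+), named WT1 and WT2, and 2 mice without the gene (*Angpt2*-KO, named KO1 and KO2). In the latter, exon 4 of *Angpt2* is deleted in the whole body from the germline onwards. Replicate 1 of each genotype was female and replicate 2 was male, so that sex and replicate number cannot be told apart. The study made the libraries in separate experiments, and the labels do not say which mice shared one. The UMIs of *Angpt2* come from the 3′ end of the transcript and not from the deleted exon, so they do not check the genotype labels.

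Wnt ligands made by cells of the neural tissue keep the vessels of the brain tight: in ECs they bind Frizzled receptors with the co-receptors LRP5 and LRP6, β-catenin then accumulates, and with the nuclear factors LEF1 and TCF7 it turns on barrier genes. RECK and ADGRA2 (GPR124) together make ECs responsive to WNT7A and WNT7B, and TSPAN12 helps FZD4 and LRP5 to respond to norrin. *Axin2* and *Apcdd1* are targets of the pathway and restrain it, which makes them common readouts of its activity. Fenestrated vessels, such as those of the choroid plexus and the circumventricular organs, have pores spanned by PLVAP diaphragms and no tight barrier.

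A cell was kept if over 500 genes were detected and mitochondrial UMIs made up less than 10%, which left 17999 of 19809 barcodes, with 2900 to 5742 cells and 31753395 to 42903731 UMIs per mouse. Pairs of libraries shared 1 to 16 barcodes. Of these cells, 14148 were brain ECs and 809 were fenestrated ECs, a separate cluster led by *Plvap* and *Gpihbp1* with 137, 318, 157 and 197 cells in WT1, WT2, KO1 and KO2. *Plvap*, the diaphragm protein gene, lay between 2851 and 3341 CPM (UMIs of a gene per 1000000 UMIs of the summed cells) in fenestrated ECs and between 1.69 and 6.73 CPM in brain ECs. The 7 endothelial markers summed to similar levels in both (11109 to 13274 and 11624 to 12653 CPM). *Cldn5*, a barrier gene, is among these 7 and was lower in fenestrated ECs (-3.95 on the log2 scale). Similar sums therefore do not mean similar levels of each marker. The 8 pericyte markers summed to 776 to 2136 CPM in fenestrated ECs and to 75.0 to 114 CPM in brain ECs, and none of the 8 was at 0. Brain ECs were divided by fixed markers into arterial-like (1419 cells), capillary-like (7285), venous-like (737) and angiogenic-like (1791) clusters, the names used below, and 2916 cells between capillary and venous took no zone name. The 10 genes and the other listed pathway genes took no part in the clustering, but genes that vary with them did. Some listed barrier genes, among them *Slc38a5*, *Slc16a1*, *Tfrc* and *Mfsd2a*, were also among the fixed markers that named the clusters. The angiogenic cluster held 56 and 33 cells of WT1 and WT2 and 848 and 854 cells of KO1 and KO2. The capillary-like cells came from clusters of 4011 cells, led by *Gm9946* and *Ttr*, and of 3274 cells, led by *Gm26917* and *Lars2*. Their capillary scores (mean standardized level of the capillary markers) were 0.341 and 0.489. That of the angiogenic cluster was higher (0.864), and its name came from its angiogenic score (1.953). Cells with at least 1 UMI of *Apln*, a gene of sprouting ECs, numbered 38, 64, 391 and 308 in WT1, WT2, KO1 and KO2. *Apln* UMIs were also found in 0.481% and 0.617% of microglia of WT1 and WT2 and in 4.15% and 1.86% of those of KO1 and KO2, at median depths of 4521, 4018, 6265 and 3497 UMIs per cell, against 1.18%, 1.36%, 18.7% and 7.43% of brain ECs at 5430, 4512.5, 7512 and 3885 UMIs. The exact (Clopper-Pearson) 95% intervals of the brain EC shares were 0.836% to 1.61%, 1.05% to 1.74%, 17.1% to 20.5% and 6.65% to 8.27%, and those of the microglia 0.0122% to 2.65%, 0.0156% to 3.39%, 2.09% to 7.31% and 0.606% to 4.28%; such intervals cover counting error only.

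Positions are given in GRCm38 from GENCODE M21. The receptors were *Fzd4* (ENSMUSG00000049791, chr7:89404355-89413134, plus strand), *Fzd6* (ENSMUSG00000022297, chr15:39006034-39038188, plus strand), *Lrp5* (ENSMUSG00000024913, chr19:3584828-3686564, minus strand) and *Tspan12* (ENSMUSG00000029669, chr6:21771395-21852515, minus strand). The ligand-specific activators were *Adgra2* (ENSMUSG00000031486, chr8:27085583-27123436, plus strand) and *Reck* (ENSMUSG00000028476, chr4:43875530-43944806, plus strand). The nuclear factors were *Lef1* (ENSMUSG00000027985, chr3:131110471-131224356, plus strand) and *Tcf7* (ENSMUSG00000000782, chr11:52252371-52283014, minus strand), and the target and feedback genes were *Axin2* (ENSMUSG00000000142, chr11:108920349-108950783, plus strand) and *Apcdd1* (ENSMUSG00000071847, chr18:62922231-62961179, plus strand). *Lef1*, *Axin2*, *Tcf7*, *Fzd6*, *Adgra2*, *Reck* and *Tspan12* overlap other annotated genes, on the opposite strand for all of these but *Reck*, whose neighbour is on the same strand; *Lef1* and *Tcf7* also have a neighbour on the same strand. How reads of such overlaps were assigned is not given in the sources used here.

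All levels below are CPM of the UMIs summed per mouse and group of cells. Fold changes are on the log2 scale, with standard error (SE) or 95% confidence interval, from edgeR's quasi-likelihood test on those sums, with Benjamini-Hochberg adjustment over all genes tested in that comparison. A gene was called where its adjusted p was under 0.05. Since nothing in the labels ties the mice of a genotype to separate litters, the p-values apply to these mice only. edgeR takes the spread of a gene between sums in part from that of all genes. With so few mice this shared part is large, most of all for the angiogenic cluster, which was tested in the KO mice alone. A small p is therefore not a measure of that gene's own spread between mice. In sums over a group of cells, fewer cells that express a gene and less RNA per cell cannot be told apart.

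Promoter windows of RefSeq in GRCm38.p6, from 250 bases before to 50 bases after a transcription start, were at hand for 6 of the 10 genes, as 10 windows of 300 bases. They were searched on both strands for the letters CTTTGAA or CTTTGAT as well as the letters CTTTGTA or CTTTGTT, versions of the core that TCF and LEF proteins bind. A match was found in 2 of the 10 windows, at an internal start of *Lef1* and at the start of *Reck*, and in 16.9% of all 32851 windows. The windows of *Axin2* (chr11:108920099-108920398, plus strand), the internal start of *Lef1* (chr3:131156044-131156343, plus strand) and *Reck* (chr4:43875280-43875579, plus strand) are shown because these genes lead the comparisons below, with a match in capitals; both matches lie in reverse orientation, and a missing match says only that these letters are not in the window.
Axin2: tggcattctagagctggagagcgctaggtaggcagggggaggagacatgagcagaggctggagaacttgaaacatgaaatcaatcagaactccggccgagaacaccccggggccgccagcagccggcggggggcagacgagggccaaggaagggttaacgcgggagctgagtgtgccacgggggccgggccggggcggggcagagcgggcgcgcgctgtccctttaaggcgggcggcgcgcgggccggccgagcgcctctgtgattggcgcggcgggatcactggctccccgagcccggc
Lef1 internal start: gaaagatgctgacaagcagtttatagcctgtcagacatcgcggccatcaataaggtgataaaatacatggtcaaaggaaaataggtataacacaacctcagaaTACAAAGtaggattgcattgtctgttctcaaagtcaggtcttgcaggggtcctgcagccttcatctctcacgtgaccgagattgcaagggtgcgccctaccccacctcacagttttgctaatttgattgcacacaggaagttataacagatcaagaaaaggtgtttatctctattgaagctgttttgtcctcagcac
Reck: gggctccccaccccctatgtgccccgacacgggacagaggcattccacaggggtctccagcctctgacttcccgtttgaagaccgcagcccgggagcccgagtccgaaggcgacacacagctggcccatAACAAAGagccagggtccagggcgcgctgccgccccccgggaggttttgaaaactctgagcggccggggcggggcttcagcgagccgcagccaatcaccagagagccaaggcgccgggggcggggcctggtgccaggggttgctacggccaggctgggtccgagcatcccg

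None of the 10 genes was called between *Angpt2*-KO and *Angpt2*-WT mice in brain ECs, in any zone, in *Apln*-positive ECs or in fenestrated ECs. In brain ECs the background was 5.81% of 13519 genes called. It was 0.698% in arterial, 1.64% in capillary and 0.0480% in venous ECs, 9.85% in *Apln*-positive ECs, and 0% in fenestrated ECs, where 411 of 9709 genes had an unadjusted p under 0.05. At an unadjusted p under 0.05 by edgeR, 1 of the 10 genes passed in brain ECs, 1 in capillary ECs and 4 in *Apln*-positive ECs. Over all genes, 2577 of 13519, 1201 of 11563 and 2247 of 10080 passed in these groups. In arterial and venous ECs 0 of the 10 passed, beside 963 of 10608 and 1049 of 10411 genes, and in fenestrated ECs 0. DESeq2 called 1 gene, *Reck*, in brain ECs and 0 in the other groups. These fits took no block. With the replicate number, which is also the sex, as a block, edgeR called *Reck* in brain and in capillary ECs.

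**Figure D1:**
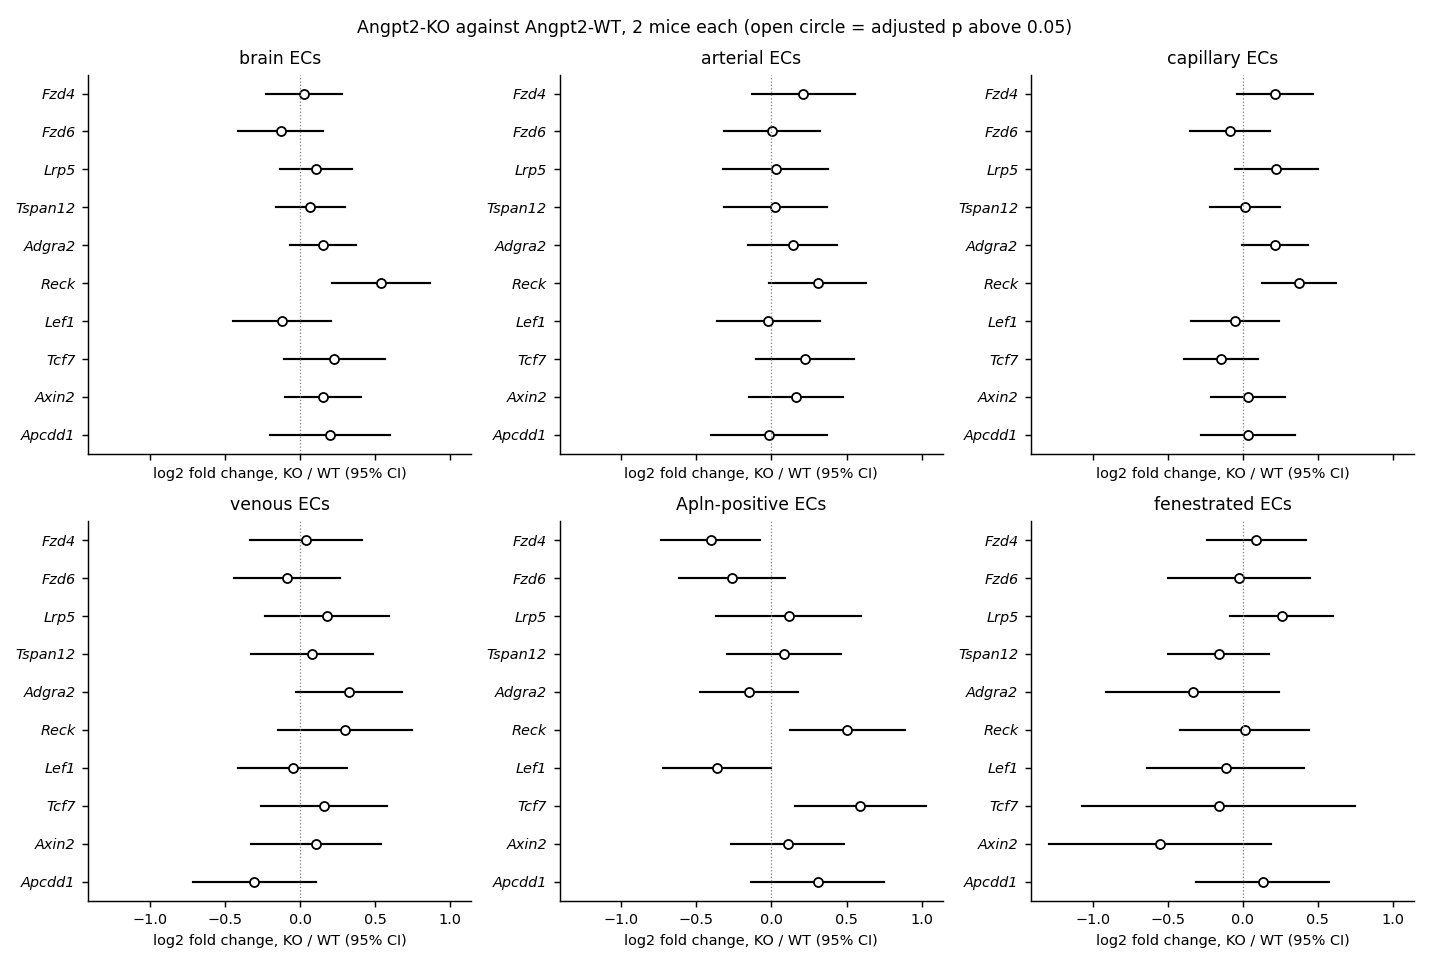
Log2 fold change of KO over WT (x axis) for the 10 genes (y axis) in 6 groups of ECs, with 2 mice per genotype; circles are estimates of edgeR, lines are 95% confidence intervals, and an open circle is a gene that was not called. All circles are open, and *Reck* in brain ECs (0.54) lies farthest from 0 relative to its interval.

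*Reck*, whose product binds WNT7 ligands outside the cell, came nearest to the threshold. In brain ECs it was at 122 and 93.5 CPM in WT1 and WT2 and at 156 and 161 CPM in KO1 and KO2, so both KO mice lay above both WT mice. The share of all genes with the genotypes separated in this way was not counted, here or below. The difference was 0.54 (SE 0.14, 95% interval 0.21 to 0.87) with an adjusted p of 0.071 by edgeR, and over 10 alternatives the adjusted p ran from 0.00263 to 0.169. It was called with DESeq2 (0.55), without a filter on low counts (0.53), without WT1 (0.77), without KO2 (0.55) and with the replicate number, which is also the sex, as a block (0.55, adjusted p by edgeR 0.0381). In arterial ECs *Reck* was at 178 and 149 CPM in the WT mice and at 195 and 223 CPM in the KO mice, a difference of 0.31 (SE 0.16). Capillary ECs had 141 and 124 CPM against 177 and 168 CPM, a difference of 0.37 (SE 0.12, adjusted p by edgeR 0.178), which was called with that block (0.39, adjusted p by edgeR 0.00241). Both genotypes overlapped in venous ECs, at 47.8 and 42.3 against 47.2 and 67.5 CPM. They overlapped as well in fenestrated ECs, at 51.8 and 45.6 against 53.9 and 47.0 CPM, where the difference was 0.01 (95% interval -0.42 to 0.44). Without the angiogenic cluster, which lies almost wholly in the KO mice, the difference in brain ECs was 0.53 (SE 0.13, adjusted p by edgeR 0.103).

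None of the nuclear factors and readouts was called in brain ECs. *Axin2* was at 123 and 113 CPM in the WT mice and at 141 and 125 CPM in the KO mice, which lay just above the WT mice (difference 0.15, 95% interval -0.10 to 0.41). *Apcdd1* was at 516 and 454 against 646 and 485 CPM and overlapped (0.20, interval -0.20 to 0.60). *Lef1* was at 557 and 491 against 496 and 482 CPM and overlapped too (-0.12, interval -0.44 to 0.21). *Tcf7* was at 70.9 and 73.7 against 99.2 and 72.5 CPM, with only KO1 high (0.23, interval -0.11 to 0.57). A p over the threshold does not show that the genotypes were alike.

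Among the receptors and activators, *Adgra2* was at 105 and 102 CPM in brain ECs of the WT mice and at 115 and 118 CPM in those of the KO mice, with a difference of 0.15 (95% interval -0.07 to 0.37). In venous ECs it was at 125 and 107 against 149 and 158 CPM, a difference of 0.33 (SE 0.17), without overlap and not called. The median depth of venous cells of KO2 was 5079.5 UMIs, against 17362 to 18239.5 in the other mice, and its part in that value was not tested. *Lrp5* was at 49.4 and 46.8 against 51.5 and 53.2 CPM in brain ECs, without overlap, and was not called between genotypes in any group. *Fzd4* (188 and 174 against 192 and 182 CPM), *Fzd6* (263 and 236 against 223 and 239 CPM) and *Tspan12* (65.3 and 71.4 against 74.0 and 71.1 CPM) overlapped between genotypes in brain ECs.

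In *Apln*-positive ECs 4 of the 10 genes had an unadjusted p under 0.05 by edgeR between genotypes, beside 2247 of all 10080 genes tested. None of the 10 was called after adjustment. *Tcf7* was at 63.4 and 58.3 CPM in WT1 and WT2 and at 103 and 77.7 CPM in KO1 and KO2 (difference 0.59, SE 0.20, adjusted p by edgeR 0.0882), without overlap. *Reck* was at 103 and 74.6 against 122 and 123 CPM, a difference of 0.51 (SE 0.18, adjusted p by edgeR 0.102). Without WT1 *Reck* was called (0.74, adjusted p by edgeR 0.0198), without KO2 *Tcf7* was called (0.78, adjusted p by edgeR 0.0231), and both were called without a filter on low counts (adjusted p by edgeR 0.0406 and 0.0221). *Fzd4* was lower in both KO mice, at 237 and 230 against 172 and 181 CPM (-0.41, SE 0.15), and so was *Lef1*, at 580 and 519 against 430 and 426 CPM (-0.36, SE 0.17). *Apln*-positive cells of the genotypes lay in different clusters: 31.6% and 17.2% of those of WT1 and WT2 were in the angiogenic cluster, against 76.7% and 60.4% of those of KO1 and KO2 (exact 95% intervals 17.5% to 48.7%, 8.90% to 28.7%, 72.2% to 80.8% and 54.7% to 65.9%). The part of this difference in the values above was not tested. Among *Apln*-positive cells of the angiogenic cluster alone, 12 and 11 cells in the WT mice and 300 and 186 in the KO mice, the differences were 0.68 for *Tcf7*, -0.29 for *Reck*, -0.39 for *Fzd4* and -0.46 for *Lef1*, with adjusted p by edgeR of 0.315 to 0.752, so that the value of *Reck* changed sign.

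Within the KO mice, *Apln*-positive brain ECs had less *Lef1*, *Axin2*, *Fzd6* and *Reck* and more *Apcdd1* than *Apln*-negative brain ECs. The 4 genes called lower stood beside a background of 9.67% of 12857 genes called lower, and the 1 called higher beside 12.5% called higher. *Reck* was at 122 and 123 CPM in *Apln*-positive and at 172 and 167 CPM in *Apln*-negative cells of KO1 and KO2, a change of -0.46 (SE 0.08, adjusted p by edgeR 7.12e-06). *Fzd6*, a Frizzled receptor gene, was at 173 and 203 against 247 and 244 CPM, a change of -0.39 (SE 0.08, adjusted p by edgeR 9.57e-05). Both genes were lower in both KO mice. *Lef1* was at 430 and 426 against 528 and 491 CPM (-0.25, SE 0.07), and *Axin2* at 119 and 118 against 152 and 126 CPM (-0.24, SE 0.08). *Apcdd1* went the other way, at 696 and 573 against 622 and 472 CPM, a change of 0.22 (SE 0.07, adjusted p by edgeR 0.0216). None of these 5 genes was called without the mouse as a term in the fit, and DESeq2 called *Reck* and *Fzd6* alone. Without KO1 only *Reck* was called, and without KO2 only *Reck* and *Fzd6*. *Axin2* was also not called without cells that carried markers of another type (-0.18, adjusted p by edgeR 0.105). *Adgra2* was called lower with a gate of at least 2 *Apln* UMIs (-0.36, adjusted p by edgeR 0.00269). The median depth was 12625 and 5881 UMIs in *Apln*-positive and 6964 and 3792 UMIs in *Apln*-negative cells of KO1 and KO2, and the part of depth in these values was not tested.

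In the WT mice only *Fzd4* was called between *Apln*-positive and *Apln*-negative brain ECs, beside a background of 1.22% called higher. It was at 237 and 230 CPM in *Apln*-positive and at 187 and 172 CPM in *Apln*-negative cells of WT1 and WT2 (0.34, SE 0.10, adjusted p by edgeR 0.0415), and higher in both mice. The difference of this contrast between genotypes was called for *Fzd4* alone (-0.46, SE 0.12, adjusted p by edgeR 0.0175), beside 1.73% of genes called lower. With a gate of at least 2 *Apln* UMIs the WT difference was -0.02 and the difference between genotypes -0.17, neither of them called. The WT call was lost without WT1 (0.39) and without WT2 (0.27), and the difference between genotypes without WT2 (-0.38) and without KO1 (-0.36). Of the *Apln*-positive cells, 13.2% and 34.4% lay in the venous cluster in WT1 and WT2 and 1.53% and 4.22% in KO1 and KO2 (exact 95% intervals 4.41% to 28.1%, 22.9% to 47.3%, 0.565% to 3.31% and 2.27% to 7.11%). *Fzd4* was at 209 to 263 CPM in venous and at 160 to 209 CPM in capillary ECs, and the part of the venous cells in its *Apln* contrast was not tested.

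Between the angiogenic cluster and capillary ECs of the same KO mice only *Fzd6* was called, at 199 and 216 CPM against 315 and 278 CPM (-0.56, SE 0.14, adjusted p by edgeR 0.000363), beside 14.6% of 11506 genes called lower. At a finer clustering, an alternative setting (resolution 0.6), a small angiogenic-like cluster of 143 cells split off, with *Pgf*, *Apln* and *Lamb1* among its leading genes and with 3, 1, 89 and 50 cells of WT1, WT2, KO1 and KO2. *Apln* was at 3340 and 3385 CPM there in KO1 and KO2, against 12.4 and 9.49 CPM in capillary ECs. *Esm1*, a tip cell gene, was at 1776 and 1838 CPM in it and at 4.51 and 14.6 CPM in capillary ECs. The WT cells were too few for a comparison, and the values below are of the KO mice.

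In this small cluster 8 of the 10 genes were called lower than in capillary ECs (background 18.3% of 10283 genes) and *Apcdd1* was called higher (background 20.0%). *Reck* was at 50.8 and 69.1 CPM against 167 and 156 CPM in capillary ECs, a change of -1.48 (SE 0.20, adjusted p by edgeR 2.76e-12). *Axin2* was at 58.5 and 65.4 against 146 and 120 CPM (-1.12, SE 0.20), and *Lef1* at 259 and 276 against 552 and 497 CPM (-0.95, SE 0.18). Both mice lay below their own capillary ECs for these 3 genes. *Fzd6* fell by 1.05 and *Adgra2* by 0.83 on the log2 scale, and *Tspan12*, *Lrp5* and *Fzd4* fell by 0.62, 0.61 and 0.52. *Apcdd1* was at 729 and 885 against 669 and 509 CPM, a change of 0.48 (SE 0.18, adjusted p by edgeR 0.0251). *Tcf7*, at 91.3 and 81.8 against 89.5 and 73.5 CPM, was not called (0.11, 95% interval -0.27 to 0.48). The median depth of these cells was 18598 and 6829.5 UMIs in KO1 and KO2, against 4697 and 3031 in the capillary clusters. The part of depth in these values was not tested. *Apcdd1* and *Axin2*, both targets of the pathway, were called in opposite directions. A fit without KO1 or KO2 had no residual degrees of freedom, so no replicate could be left out here. At this resolution 1611 other cells of the angiogenic cluster lay in a cluster of 1653 cells, to which the fixed markers gave no name.

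**Figure D2:**
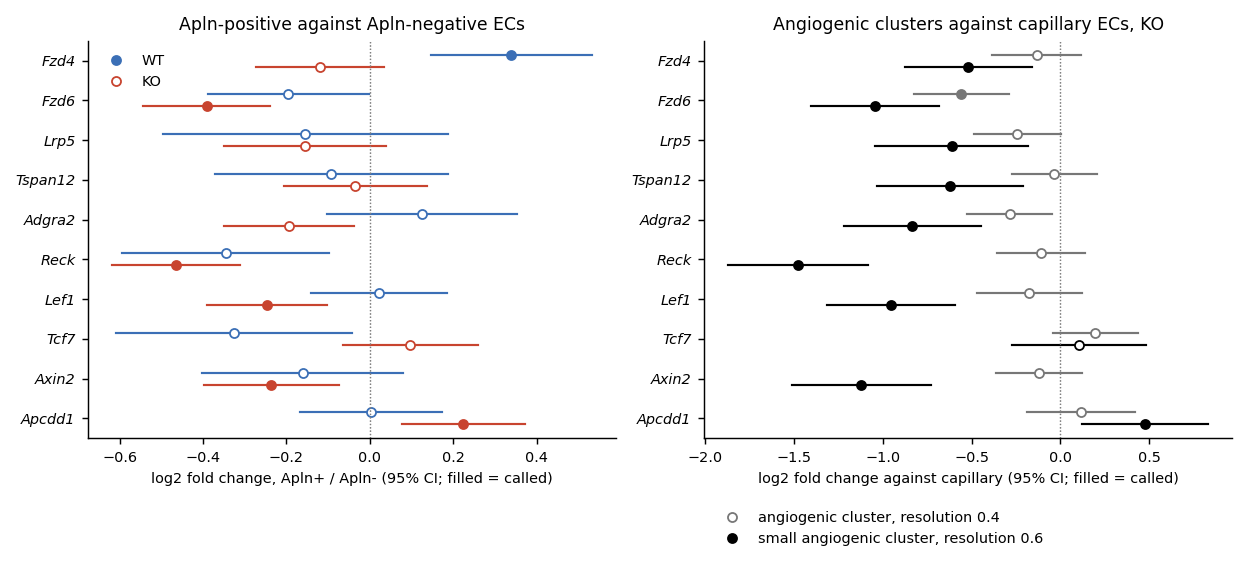
Left, log2 fold change of *Apln*-positive over *Apln*-negative brain ECs in WT (blue) and KO (red) mice; right, log2 fold change over capillary ECs of KO mice for the angiogenic cluster (grey, resolution 0.4) and for the small angiogenic cluster (black, resolution 0.6). Lines are 95% confidence intervals and filled circles are called genes: in the small cluster *Reck* (-1.48), *Axin2* (-1.12) and *Fzd6* (-1.05) lie farthest to the left and *Apcdd1* (0.48) to the right.

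All 10 genes differed between fenestrated and brain ECs, in opposite directions. The nuclear factors and readouts *Lef1*, *Tcf7*, *Axin2* and *Apcdd1*, the activators *Adgra2* and *Reck*, and the receptor gene *Fzd6* were lower in fenestrated ECs. The norrin receptor genes *Fzd4*, *Lrp5* and *Tspan12* were higher. The 7 genes called lower and 3 called higher stood beside 22.2% and 21.7% of 13289 genes. Each difference had the same sign in 4 of 4 mice, and all 10 were called under each of the 10 alternatives run, among them the one without cells that carried markers of another type (17.6% to 31.4% of fenestrated and 1.82% to 5.74% of brain ECs).

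*Lef1* was at 42.3, 32.7, 30.2 and 41.0 CPM in fenestrated ECs of WT1, WT2, KO1 and KO2, against 482 to 557 CPM in brain ECs, a difference of -3.81 (SE 0.09, adjusted p by edgeR 1.27e-16). *Apcdd1* was at 44.5, 45.6, 57.2 and 45.0 CPM against 454 to 646 CPM (-3.44, SE 0.08). *Axin2* was at 16.1, 14.3, 9.34 and 12.1 CPM against 113 to 141 CPM (-3.31, SE 0.11). *Tcf7* was at 8.76, 8.83, 8.24 and 8.06 CPM against 70.9 to 99.2 CPM (-3.23, SE 0.13). Microglia, taken here as cells outside the endothelium, held 36.6 to 75.3 CPM of *Lef1*, 47.5 to 119 of *Apcdd1*, 12.6 to 22.0 of *Axin2* and 3.96 to 14.8 of *Tcf7*. Fenestrated levels of these 4 genes were within or under the range in microglia. Pericytes, whose markers were also found in fenestrated ECs, held 208 to 353 CPM of *Lef1* and 118 to 154 CPM of *Axin2*. The source of the UMIs of these 4 genes in fenestrated ECs was not tested. T or NK cells, in which *Lef1* and *Tcf7* are known lineage factors, held 240 to 362 CPM of *Tcf7*.

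Levels of the other genes called lower stayed above those in microglia. *Fzd6* was at 90.5, 62.9, 83.5 and 69.9 CPM in fenestrated ECs of WT1, WT2, KO1 and KO2, against 223 to 263 CPM in brain ECs (-1.66, SE 0.09) and 13.2 to 37.8 CPM in microglia. *Adgra2*, the partner of *Reck* in WNT7 sensing, was at 48.9, 30.2, 29.7 and 33.6 CPM against 102 to 118 CPM (-1.68, SE 0.10) and 7.44 to 14.8 CPM in microglia. *Reck* was at 45.6 to 53.9 CPM against 93.5 to 161 CPM (-1.38, SE 0.09), with 12.6 to 27.7 CPM in microglia.

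*Tspan12* was at 212, 238, 203 and 216 CPM in fenestrated ECs of WT1, WT2, KO1 and KO2, against 65.3 to 74.0 CPM in brain ECs, a difference of 1.62 (SE 0.07, adjusted p by edgeR 3.81e-13). *Lrp5* was at 92.0, 96.4, 115 and 119 CPM against 46.8 to 53.2 CPM (1.07, SE 0.08). *Fzd4* was at 347, 332, 375 and 374 CPM against 174 to 192 CPM (0.95, SE 0.06). Fenestrated ECs of every mouse lay above the brain ECs of all mice for these 3 genes. Both KO mice lay above both WT mice for *Fzd4* and *Lrp5*, with KO over WT differences of 0.09 (95% interval -0.24 to 0.42) and 0.26 (-0.09 to 0.60), neither of them called.

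**Figure D3:**
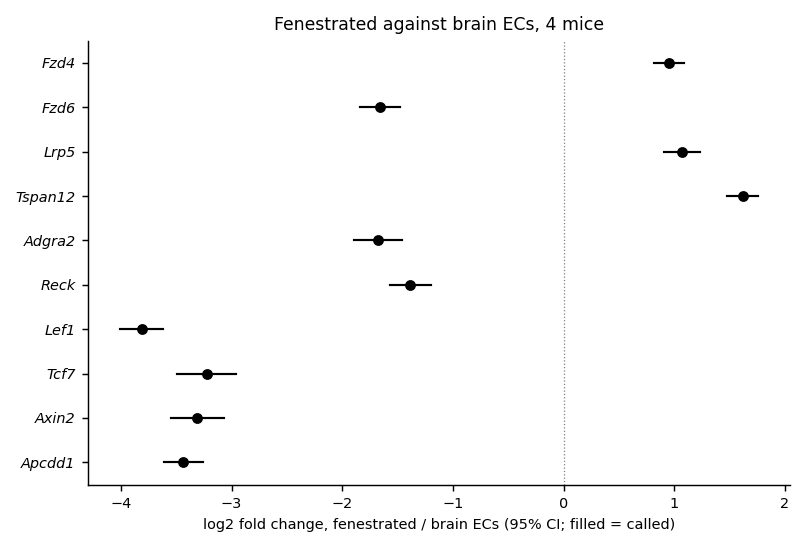
Log2 fold change of fenestrated over brain ECs (x axis) for the 10 genes (y axis), fitted over 4 mice with the mouse as a term; lines are 95% confidence intervals and all circles are filled, since all 10 genes were called. *Lef1* (-3.81) lies farthest to the left and *Tspan12* (1.62) farthest to the right.

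The difference of the KO effect between fenestrated and brain ECs was called for none of the 10 genes by edgeR, beside 2.02% of 13289 genes called, and DESeq2 called 0. At an unadjusted p under 0.05 by edgeR there were 2, beside 1290 of all 13289 genes. These were *Axin2* (-0.71, SE 0.28) and *Reck* (-0.54, SE 0.18, adjusted p by edgeR 0.191). *Axin2* rested on 16.1 and 14.3 against 9.34 and 12.1 CPM in fenestrated ECs, levels not above those in microglia.

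Along the arteriovenous axis the genes had unlike profiles. In arterial ECs *Apcdd1*, *Fzd4*, *Lef1* and *Fzd6* were lower than in capillary ECs and *Reck* was higher, beside backgrounds of 19.2% and 20.5% of 11635 genes called lower and higher. In venous ECs *Reck*, *Apcdd1*, *Tcf7*, *Fzd6*, *Axin2* and *Lrp5* were lower and *Fzd4* was higher, beside 22.2% and 23.1%. The median depth per cell differed between zones: it was 5962 to 10429 UMIs in arterial, 2936 to 4417.5 in capillary and 5079.5 to 18239.5 in venous cells of the 4 mice. The part of depth in the zone values was not tested.

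*Reck* had the steepest profile. It was at 178, 149, 195 and 223 CPM in arterial ECs of WT1, WT2, KO1 and KO2, at 141, 124, 177 and 168 CPM in capillary ECs and at 47.8, 42.3, 47.2 and 67.5 CPM in venous ECs. Levels fell in this order in each mouse, by 1.62 on the log2 scale from capillary to venous ECs (SE 0.09, adjusted p by edgeR 1.29e-14). The rise from capillary to arterial ECs was 0.24 (SE 0.08, adjusted p by edgeR 0.0136), and it was not called without WT1, WT2 or KO2 or without the mouse as a term (0.21 to 0.24, adjusted p by edgeR 0.0555 to 0.231).

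*Fzd4* ran the other way, at 95.3 to 149 CPM in arterial, 160 to 209 CPM in capillary and 209 to 263 CPM in venous ECs. Its venous level was 0.44 above (SE 0.08, adjusted p by edgeR 3.33e-05) and its arterial level 0.63 below the capillary level (SE 0.08). *Apcdd1*, an inhibitor that binds WNT and LRP5, was at 492 to 642 CPM in capillary ECs and lower on both sides: 180 to 265 CPM in arterial (-1.38, SE 0.09) and 216 to 323 CPM in venous ECs (-1.16, SE 0.09). *Axin2* was at 120 to 154 CPM in capillary, 110 to 144 CPM in arterial and 65.6 to 98.7 CPM in venous ECs, of which only the venous difference was called (-0.80, SE 0.08). *Tcf7* was called in veins as well, with 43.7 to 57.0 CPM in venous against 71.6 to 92.9 CPM in capillary ECs (-0.87, SE 0.10). In arterial ECs it was called only without KO2 (-0.30, adjusted p by edgeR 0.00986).

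*Lef1* was not called in veins. It was at 601, 507, 591 and 547 CPM in venous ECs of WT1, WT2, KO1 and KO2, while capillary ECs had 551, 523, 540 and 501 CPM, a difference of 0.01 (95% interval -0.13 to 0.15). Its arterial level was lower, 346 to 438 CPM (-0.48, SE 0.07). *Fzd6* was at 278 to 317 CPM in capillary and 170 to 192 CPM in venous ECs (-0.82, SE 0.08); its arterial difference of -0.30 became 0.04 with the finer clustering. *Lrp5* was called lower in veins (-0.26, SE 0.09) in 3 of 10 alternatives. *Tspan12* and *Adgra2* were called in neither zone, although *Adgra2* was called higher in veins without TMM scaling (0.22, adjusted p by edgeR 0.0375) and with the finer clustering (0.25, adjusted p by edgeR 0.0267). Venous ECs carried pericyte markers at sums of 58.1 to 833 CPM, against 44.4 to 62.6 CPM in capillary ECs, and 7.32% to 37.2% of venous cells carried markers of another type. Without those cells the same number of genes, 7 of 10, was called in veins. With the finer clustering 211 brain ECs, 53, 70, 9 and 79 of WT1, WT2, KO1 and KO2, formed a cluster led by *Vtn*, *Pdgfrb* and *Notch3* and named pericyte-like, and 147 of them had been in the venous cluster. The venous comparison at that resolution, which leaves this cluster out, also called 7 of the 10 genes, without *Lrp5* and with *Adgra2*.

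**Figure D4:**
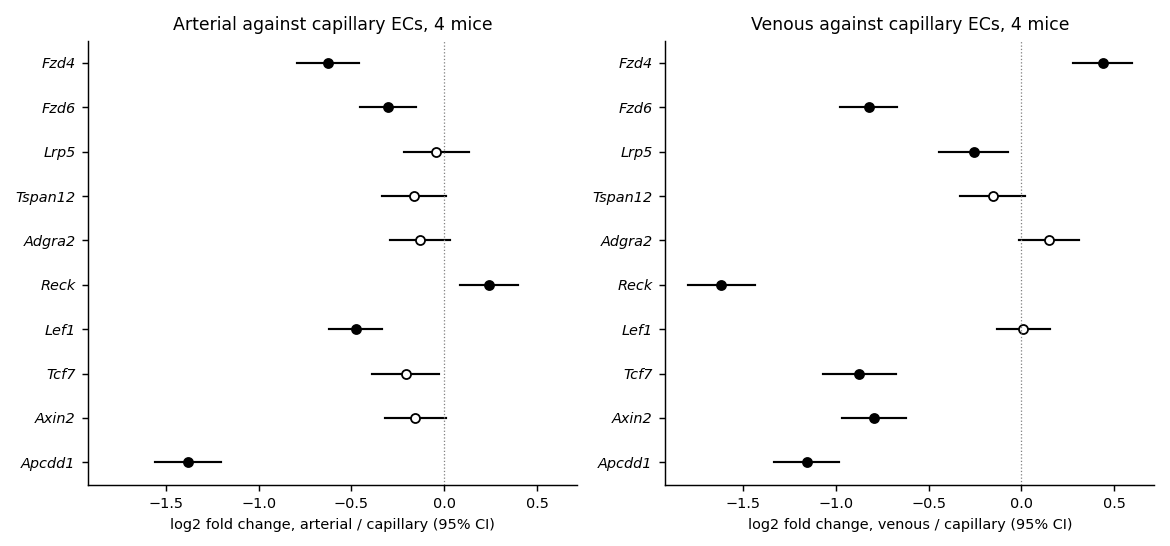
Log2 fold change of arterial (left) and venous (right) over capillary ECs for the 10 genes, fitted over 4 mice with the mouse as a term; lines are 95% confidence intervals and filled circles are called genes. *Apcdd1* lies to the left in both panels (-1.38 and -1.16), *Reck* to the right in arteries (0.24) and farthest to the left in veins (-1.62), and *Fzd4* on opposite sides (-0.63 and 0.44).

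**Figure D5:**
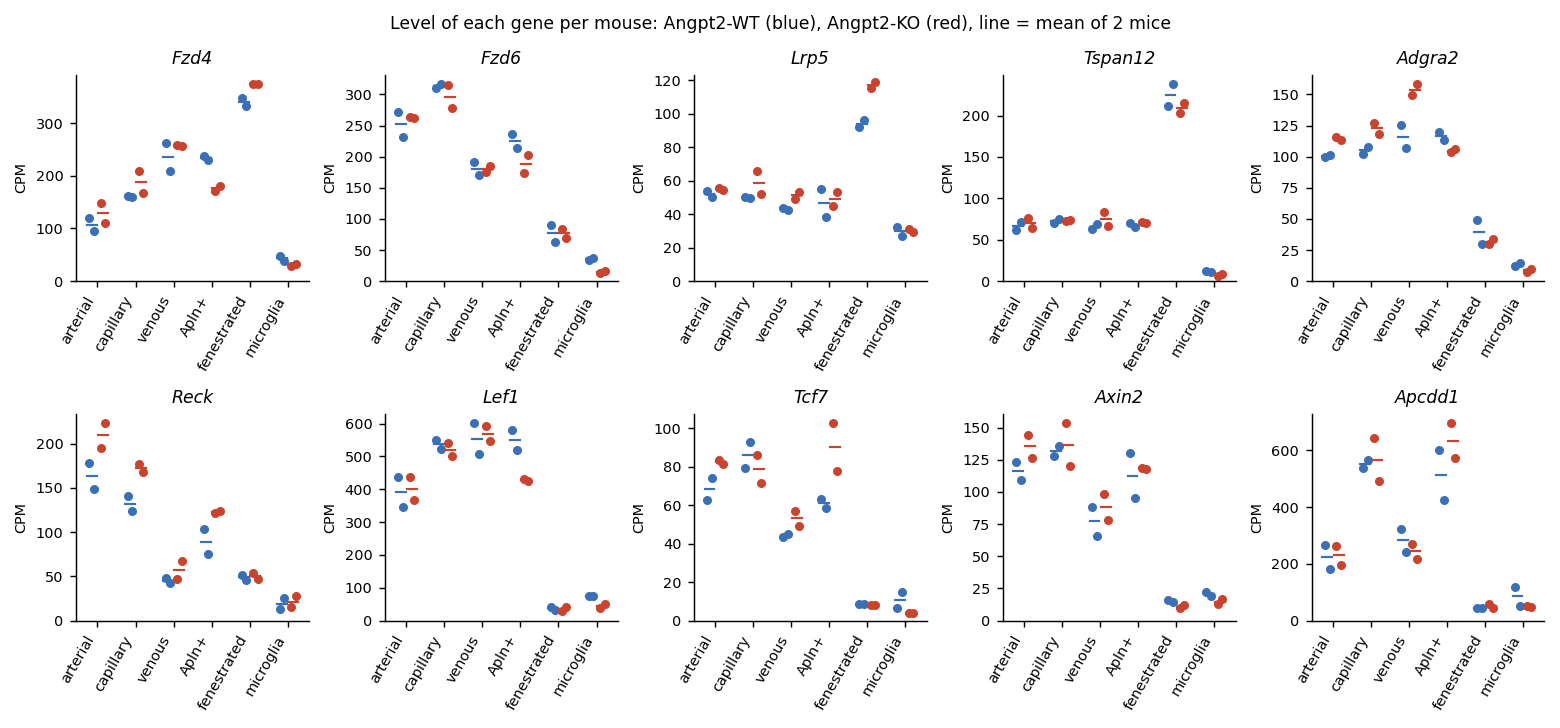
Level of each of the 10 genes in CPM (y axis, from 0) in arterial, capillary, venous, *Apln*-positive and fenestrated ECs and in microglia; each point is a mouse (blue WT, red KO) and each line the mean of 2 mice. Fenestrated ECs lie near microglia for *Lef1*, *Tcf7*, *Axin2* and *Apcdd1* and above all other groups for *Fzd4*, *Lrp5* and *Tspan12*.

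Of the other 115 listed genes of the pathway, the counts by list were as follows. Of 24 genes listed as barrier genes downstream of the pathway, all tested in brain ECs, 1 rose in KO mice, 1 fell and 22 were not called. Of all genes, 3.74% were called higher and 2.07% lower. The median difference was 0.0026 for the list and -0.019 over all genes. The list also holds *Ccnd1* and *Plvap*. The gene that fell, named after its values were seen, was *Sox17*, a transcription factor gene of arterial ECs, at 260 and 281 CPM in the WT mice and 184 and 185 CPM in the KO mice (-0.57, SE 0.11, adjusted p by edgeR 0.0236). *Sox17* was higher in arterial than in capillary ECs (0.61, SE 0.07). The arterial cluster held 510 and 523 cells of the WT mice and 115 and 271 cells of the KO mice. Between genotypes *Sox17* was -0.26 within arterial, -0.33 within capillary, -0.36 within venous and -0.34 within fenestrated ECs, none of them called. In *Apln*-positive ECs it was called lower in the KO mice (-0.71, SE 0.15, adjusted p by edgeR 0.00775). Within the KO mice it was also lower in the angiogenic cluster than in capillary ECs (-0.74, SE 0.13). The part of cell numbers in the brain EC value was not tested. The gene that rose was *Ccnd1*, which codes for the cell cycle protein cyclin D1, at 84.5 and 79.2 CPM in the WT mice and at 562 and 445 CPM in the KO mice (2.60, SE 0.16, adjusted p by edgeR 0.000886). It was higher in the KO mice in arterial (0.76), capillary (1.86), venous (1.95) and *Apln*-positive ECs (2.65) as well; the arterial call was lost without KO2 (0.70) and with the finer clustering (0.68). In fenestrated ECs *Ccnd1* was at 545 and 623 against 794 and 677 CPM and was not called, and its difference from the effect in brain ECs was -2.31 (SE 0.14). Capillary ECs of the KO mice had more *Ccnd1* (276 and 280 CPM) than those of the WT mice (69.2 and 84.2 CPM).

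Among ligands and inhibitors, *Wnt5a*, a ligand of noncanonical signalling, was lower in KO brain ECs, at 103 and 113 against 21.2 and 39.7 CPM (-1.85, SE 0.25). Its venous level was 225 to 338 CPM. The venous zone held 164 and 372 cells of the WT and 41 and 160 cells of the KO mice. Within venous ECs *Wnt5a* was at 338 and 252 against 225 and 251 CPM and was not called. Within capillary ECs it was called lower in the KO mice (-1.82, SE 0.32, adjusted p by edgeR 0.00525). This capillary call was kept in 9 of 10 alternatives. The part of cell numbers in the brain EC value was not tested. *Dkk2*, a secreted inhibitor, was higher in KO arterial ECs, at 17.8 and 14.0 against 86.2 and 58.5 CPM (2.10, SE 0.21), in capillary ECs (2.42) and in brain ECs (1.26), of which the last 2 calls were lost without WT2 (1.61 and 0.84). In all, the capillary call was lost in 2 of 9 and the brain EC call in 2 of 10 alternatives. *Sfrp4* (3.85) and *Rspo3* (-2.12) were called in brain ECs at levels of at most 1.42 CPM, and both calls were lost without WT1 and without WT2. In all, the call of *Sfrp4* was lost in 3 and that of *Rspo3* in 6 of 10 alternatives. None of the 16 tested genes of the destruction complex and cytoplasmic relay, the 14 tested nuclear partners and the 9 tested other receptors was called in brain ECs. There 5.81% of all 13519 genes were called.

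In *Apln*-positive ECs of KO against WT mice 6 of 23 tested barrier genes fell and 1 rose, beside 4.05% of all genes called lower and 5.80% called higher, and with the cells of the genotypes in different clusters as given above. *Slc38a5*, a glutamine transporter, was at 389 and 635 CPM in the WT mice and at 159 and 241 CPM in the KO mice (-1.38, SE 0.24). *Slc16a1*, the monocarboxylate transporter MCT1, was at 784 and 299 against 242 and 257 CPM (-1.11, SE 0.32); without WT1 it was -0.24 and not called, and it was not called in 4 other alternatives of 11 either. *Wnt5a* (-2.70) and *Nkd2* (-1.59) were lower as well, the latter at 8.57 and 35.2 against 7.28 and 10.1 CPM; without WT2 its difference was -0.06. Within the KO mice 18 of 24 barrier genes were lower in *Apln*-positive than in *Apln*-negative cells and 1 was higher, with a median of -0.47. Of all genes, 9.67% were called lower and 12.5% higher. In the WT mice, with 38 and 64 *Apln*-positive cells, 4 of 24 were lower and 2 higher, beside 1.45% of all genes called lower and 1.22% called higher. For 8 of the 24 the difference between these contrasts was itself called lower, beside 1.73% of all genes, led by *Slc38a5* (-1.01), *Slc16a1* (-0.79) and *Slc22a8* (-0.77). The calls of *Slc38a5*, *Slc16a1* and *Slc22a8* were lost without the mouse as a term, and that of *Slc16a1* without WT1 (-0.29). In all, these 3 calls were lost in 1, 4 and 2 of 10 alternatives. *Notum*, which codes for an enzyme that inactivates Wnt ligands, was lower in *Apln*-positive cells of both genotypes (-1.43 in KO, -0.70 in WT). The WT call of *Notum* was lost in 4 of 10 alternatives, among them the one without WT2. *Frzb* rose in KO at levels of at most 2.33 CPM.

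Fenestrated ECs had less of 22 of the 24 barrier genes, with a median of -3.45, beside 22.2% of all genes called lower and 21.7% called higher. Among those that fell were *Slc38a5* (-4.23) and *Cldn5* (-3.95), the main claudin of the barrier. *Cldn5* was at 200, 405, 339 and 298 CPM in fenestrated ECs of WT1, WT2, KO1 and KO2 and at 4222 to 5744 CPM in brain ECs, with 251 to 950 CPM in microglia. The 2 genes called higher were *Plvap* (9.88), a marker that named the cluster, and *Ccnd1* (1.69, SE 0.07). *Lrp6*, the co-receptor gene related to *Lrp5*, was lower (-1.07, SE 0.08), as was *Fzd3* (-1.35, SE 0.20). Of 11 tested other receptors 8 were higher in fenestrated ECs and 2 lower, with a median of 0.67 against -0.05 over all genes; *Ptk7* (4.89) led them at 1.84 to 4.70 CPM.

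Zones differed in the listed genes too. *Slc16a1*, *Tfrc* and *Mfsd2a* were among the capillary markers, and *Slc38a5* among the venous markers, that named the zones. Their differences below, and part of the counts of barrier genes, therefore follow in part from the naming. In arterial ECs 16 of 24 barrier genes were lower and 4 higher than in capillary ECs, beside 19.2% and 20.5% of all genes, among them *Slc38a5* (-2.66), *Slc16a1* (-2.18) and the transferrin receptor gene *Tfrc* (-1.82), while *Dkk2* (3.75) and *Wnt5b* (2.71) were higher. In venous ECs 15 were lower and 4 higher, beside 22.2% and 23.1%. *Mfsd2a*, a lipid transporter that restrains transcytosis, was 3.31 lower there on the log2 scale, as was *Sostdc1* by 3.00, and *Nkd2* (4.58), *Rspo3* (3.99) and *Wnt5a* (3.96) were higher. The angiogenic cluster of KO mice had less *Wnt5a* (-2.42), *Dkk2* (-1.46), *Notum* (-1.14) and *Slc16a1* (-0.95) than capillary ECs and more *Ccnd1* (1.52).

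Genes with the profile most like those of 3 readouts were sought over 20 sums, the 4 mice in arterial, capillary, venous, *Apln*-positive and fenestrated ECs, among 8626 genes with a mean of at least 10 CPM. The sums of a mouse share a library, and the groups of cells differ in depth. *Lef1* was most like *Tnfrsf19* (Pearson r 0.99), *Maoa* (0.99) and *Elovl7* (0.99). *Axin2* was most like *Tgfa* (0.99), *Tcf7* (0.99) and *Prom1* (0.98), and *Apcdd1* most like *Slc7a5* (0.99), *Ccdc141* (0.98) and *Tfrc* (0.98), of which *Slc7a5* and *Tfrc* code for barrier transporters of amino acids and iron. Both were also among the capillary markers that named the zones. Among the 10 genes themselves, *Reck* was the least like *Lef1* of those lower in fenestrated ECs (0.49), and *Tspan12* ran opposite to *Lef1* (-0.97). The 20 sums include the fenestrated ones, in which *Lef1* was lower and *Tspan12* higher than in brain ECs. No correlation was run without them, and *Tspan12* was called in neither arterial nor venous ECs.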

How the data were processed

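The deposited files hold UMI counts per gene and barcode of 4 mouse libraries made with a 10x 3′ kit. The authors made these counts with Cell Ranger (6.1.2 per the labels, 6.1.1 per the file headers) on mm10 and did not normalize them. Of 32286 gene identifiers, 99.6% matched GENCODE M21.

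Cells that had over 500 genes and less than 10% mitochondrial UMIs were clustered with Seurat 5.3.0 in R 4.3.3 (2000 variable genes, 50 principal components, resolution 0.2 for all cells and 0.4 for ECs, with 0.6 as an alternative). The clustering left out 163 genes: the 10 genes described, the listed pathway genes and stress genes. No doublet caller was run; cells with 3 or more marker genes of another type were removed in an alternative. A zone was named from fixed markers where its score led the next by 0.25, a margin chosen after the scores were seen. Since the names were rebuilt here, cell numbers can differ from the study for that reason.

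For each mouse and each group of cells, UMIs were added up and tested with edgeR 4.0.16 (filterByExpr, TMM, quasi-likelihood test, adjusted p threshold 0.05), with the mouse as a term where groups of cells of the same mice were compared. DESeq2 1.42.0 was an alternative. The tests were also run on simulated counts with known changes. The spread there was equal for all genes, so that run cannot show how the tests behave with the spread between these mice. Levels are CPM without TMM. From the pathway lists, up to 5 called genes with the largest absolute log2 change were named per comparison, and the 3 genes most like *Lef1*, *Axin2* and *Apcdd1* were named by correlation. Some genes that this rule would name are not reported here. The genes and lists were chosen with earlier results of these data known. Imaging data were not analysed here.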

Additional observations from a re-analysis of the deposited data

Results flagged for a closer look

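The contrast between *Apln*-positive and *Apln*-negative brain ECs differed between the genotypes for *Fzd4*, by -0.46 on the log2 scale (KO minus WT, SE 0.12, adjusted p by edgeR's quasi-likelihood test 0.0175). *Fzd4* was higher in *Apln*-positive cells of both WT mice (0.34) and at -0.12 in the KO mice, not called by itself, where KO1 was lower (-0.23) and KO2 was at -0.0058. Without KO1 the KO value was -0.037 and without KO2 it was -0.19. The adjusted p ran from 0.00329 to 0.868 over 10 alternatives, and the value was -0.17 with a gate of at least 2 *Apln* UMIs, -0.38 without WT2 and -0.36 without KO1, none of these called. In WT mice the contrast rests on 38 and 64 *Apln*-positive cells.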

How the results depend on the processing

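Of 1370 alternative values for the 10 genes, 1310 kept their side of the threshold, among them 85 that changed sign without being called, 36 lost a call, 22 gained one and 2 called values changed sign: *Fzd4* between *Apln*-positive and *Apln*-negative WT cells at a gate of 2 or more UMIs (-0.021) and *Fzd6* between arterial and capillary ECs at resolution 0.6 (0.043). Of 493 values for other listed genes, 64 lost a call and 1 changed sign, *Nkd2* between *Apln*-positive and *Apln*-negative WT cells without WT2 (-0.32, against 1.36 without WT1). The causes were not tested.

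Of the 10 genes, KO against WT called 1 in brain ECs under DESeq2, without the filter on low counts and with the replicate number as a block, and 2 in *Apln*-positive ECs without that filter. With the block, 1 was called in capillary ECs, *Reck* (0.39). In *Apln*-positive against *Apln*-negative KO cells DESeq2 called 2 and the fit without the block 0. In the same contrast in WT cells, and in its difference between genotypes, 0 were called under DESeq2, without the block and at a gate of 2 or more UMIs. The angiogenic cluster at resolution 0.6 had 9. Leaving out 1 mouse at a time gave 0 to 1 in brain ECs, 0 to 1 in *Apln*-positive ECs, 1 to 5 for the *Apln* contrast in KO, 0 to 1 in WT and 0 to 1 for their difference; the angiogenic contrast was not run without KO1 or KO2.

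Replicate numbers coincide with sex, and the labels tie them to no litter, day or experiment. Deviations of mice with the same number correlated over genes at -0.15 (fenestrated) to 0.47 (capillary), with 0.31 in brain ECs. The main fits between genotypes took no block by replicate number because the study's methods name none, and no crossed pairing was run. The block moved the genes called from 785 to 1051 in brain and from 190 to 610 in capillary ECs. Other counts over all genes that moved by over 1.5 times, as lowest and highest against the main count, were 191 (without the angiogenic cluster) and 1582 (no filter) against 785 in brain, 36 (DESeq2) and 299 (without WT1) against 74 in arterial, 13 (without WT2) and 429 (without WT1) against 5 in venous, and 122 (DESeq2) against 190 in capillary ECs. In *Apln*-positive ECs there were 28 (angiogenic cluster alone) against 993, and in fenestrated ECs 54 (no filter) against 0. The *Apln* contrast gave 903 (without KO1) against 2856 in KO, 30 (without the block) against 343 in WT and 39 (without the block) against 590 for the difference. The fenestrated difference of KO effects gave 47 (without the block) and 456 (no filter) against 269, arterial against capillary 2910 (resolution 0.6) against 4612, and the angiogenic cluster 931 (DESeq2) against 3454.

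Without TMM the genes called higher and lower went from 50 and 24 to 53 and 15 (KO, arterial), from 3 and 2 to 21 and 6 (KO, venous), from 157 and 186 to 240 and 172 (*Apln* contrast, WT) and from 368 and 222 to 339 and 323 (its difference). Some groups rest on few cells: 41 venous cells in KO1, and 38 and 64 *Apln*-positive cells in WT1 and WT2.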

Other observations

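Levels of the 10 genes in other cell types were not tested. Pericytes held 208 to 353 CPM of *Lef1* and 118 to 154 CPM of *Axin2* over the 4 mice, and smooth muscle cells 123 to 160 CPM and 45.4 to 88.3 CPM. The erythrocyte cluster held 369 to 530 CPM of *Lef1* and 422 to 604 CPM of *Apcdd1*, at median depths of 9195 to 16076.5 UMIs per cell. The source of these UMIs was not tested. *Tcf7* was at 325, 240, 321 and 362 CPM in T or NK cells of WT1, WT2, KO1 and KO2, against 70.9 to 99.2 CPM in brain ECs.

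In the 2916 cells between capillary and venous ECs, *Reck* was at 99.4 and 85.4 CPM in WT1 and WT2 and at 148 and 141 CPM in KO1 and KO2. In the angiogenic cluster *Lef1* was at 580 and 554 CPM in the WT mice, from 56 and 33 cells, and at 472 and 479 CPM in the KO mice. The genotypes did not overlap in either case, and neither difference was tested. The share of all genes without overlap in these groups was not counted.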
